A study of Mus musculus with 6 samples.

Results

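The opioid and cannabinoid receptors were 5 genes on a spotted array for genes of neurotransmission, read by 10 oligonucleotides (oligos) out of 590 gene probes, each printed at 2 spots per array. The members were taken by the class and name printed beside each spot: the mu, delta and kappa opioid receptors (Oprm1, Oprd1, Oprk1) with 6 oligos, and the cannabinoid receptors Cnr1 and Cnr2 with 4. No spot carried a printed name for the nociceptin receptor Oprl1. Every oligo was kept apart, and oligos of a gene are numbered as the array numbers them. The labels give cortex and thymus of adult B10D2 mice, an inbred strain, with no treatment. Total RNA of 6 cortices made 1 pool and that of 5 thymi made the other, and 15 µg of a pool was labelled with the red dye Cy5 for each of 3 single-colour hybridizations per tissue. The 3 arrays of a tissue thus share 1 RNA pool. All p-values below measure the spread between hybridizations and not between animals.

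Opioid and cannabinoid receptors act through inhibitory G proteins: they lower cyclic AMP, open G protein-gated potassium channels and close calcium channels at nerve terminals. Oprm1 is the main target of morphine and of beta-endorphin, Oprd1 binds enkephalins and Oprk1 binds dynorphins. Cnr1 is the abundant cannabinoid receptor of brain, found at high level in interneurons that contain cholecystokinin, and Cnr2 is known mainly from B cells and other immune cells. In bulk tissue, fewer cells of a type and less RNA per cell cannot be told apart.

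Signal brightness differed between the arrays before any scaling. The median gene spot, after subtraction of its local background, stood at 2491, 1763 and 817 on cortex arrays 1 to 3, against 914, 468 and 584 on thymus arrays 1 to 3. Between 419 and 509 of 590 probes were above background on a cortex array, against 270 to 393 on a thymus array. Above background means, for a spot, a median signal over that of the surrounding background plus 2 of its SD, and, for an oligo, that most of its unflagged spots met this. The image names in the file headers carried 3 different number pairs, taken here as scan settings, and a date, taken as the scan day. Cortex 3 and thymus 2 shared a pair, and thymus 3 had its own. The spot coordinates of cortex 3 and thymus 2 ran over a smaller range, taken here as a coarser pixel grid. Of the marker lists, neuron markers had 6 tested probes of Eno2 and Gad2: 5 were higher in cortex, beside 24.3% of all tested probes, and 1 did not pass the test. Eno2 oligo 1 (neuronal enolase) stood at 13.39, 13.08 and 13.77 on cortex arrays and at 10.96, 11.39 and 11.22 on thymus arrays (normalized log2 intensity). Eno2 oligo 2 and 3 of the 4 Gad2 probes were higher in cortex too. The probe that did not pass was oligo 1 of an entry printed as GAD67 (0.12 ± 0.38, limma adjusted p = 0.843). It was above background on all 3 thymus arrays. Oligo 2 of each Gad2 entry was tested through its cortex arrays alone, so its call is a description. Myelin basic protein (Mbp) was higher in cortex by its oligo 1 (3.66 ± 0.41, SE, adjusted p = 4.58e-06) and lower by its oligo 2 (-1.44 ± 0.36, adjusted p = 0.00347, limma), whose call was lost with arrays centred on control genes (-0.82) and with no scaling (-0.44). Of 2 tested probes of the B cell factor Pax5, 1 was higher in thymus (-2.33 ± 0.35, adjusted p = 5.17e-05, limma), with values of 8.91, 8.52 and 8.62 on cortex arrays and 10.90, 11.33 and 10.82 on thymus arrays, a call kept with control genes (-1.98) and lost with no scaling (-1.59), whereas Pax5 oligo 1 was at -0.30 ± 0.37 and missed the threshold. No probe of the astrocyte, thymocyte or thymic epithelium lists was found by name. Thymus RNA could thus be checked only by the neuron markers, with 5 of 6 probes lower there, and by Pax5.

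All 12 Oprm1 spots of the cortex arrays and all 12 of the thymus arrays were above background. Cnr1 gave signal at 12 of 12 spots in cortex and 8 of 12 in thymus. Oprd1 was above background at 8 of 12 spots in cortex and 5 of 12 in thymus, and Oprk1 at 7 of 12 and 2 of 11. Cnr2 reached it at 2 of 12 spots in cortex and 2 of 12 in thymus. Blank spots, measured in the same way, passed at 15 of 375 in cortex (4%) and at 24 of 369 in thymus (6.50%). Counted over the 10 oligos, 41 of 60 member spots passed in cortex and 29 of 59 in thymus.

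**Figure D1:**
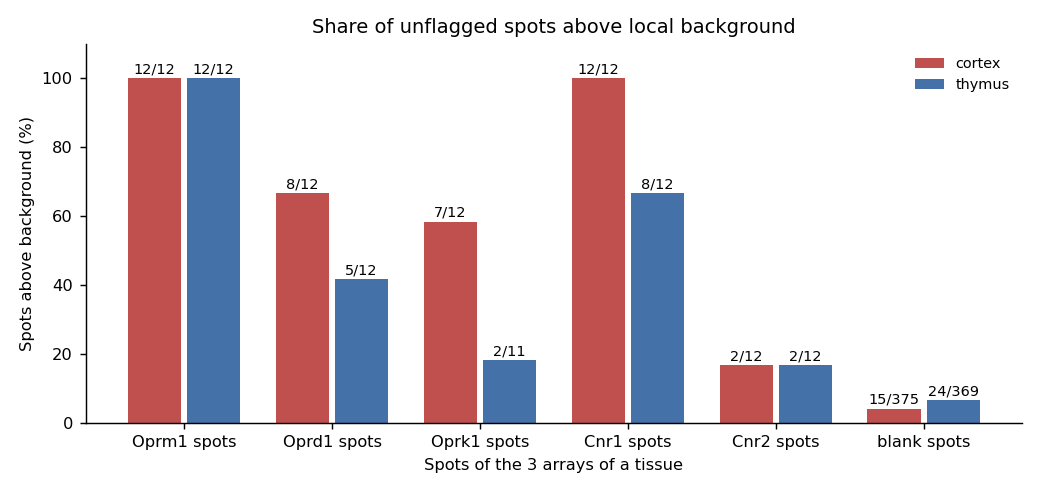
Share of unflagged spots above the local background (y axis, percent) for each receptor gene and for blank spots, summed over the 3 cortex arrays (left bars) and the 3 thymus arrays (right bars); the numbers over the bars are spots above background over unflagged spots. Oprm1 passed at every spot in both tissues, while Cnr2 passed at 2 of 12 spots in each.

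A probe entered the test where it was above background on at least 3 of 6 arrays, which held for 465 of the 590 probes and for 5 of the 10 receptor oligos, belonging to Oprm1, Oprd1 and Cnr1. Differences are cortex minus thymus on the log2 scale, after quantile scaling of the arrays. Across all tested probes 223 passed an adjusted p of 0.05 in limma (48.0%), 113 of them higher in cortex (24.3%) and 110 higher in thymus (23.7%). Of the 5 tested receptor oligos, 1 was higher in cortex, 3 were higher in thymus and 1 did not pass. Their median difference was -1.08, beside -0.10 over all tested probes. The cortex and thymus arrays did not overlap at 4 of the 5 oligos, beside 55.7% of all tested probes: 1 oligo had all cortex arrays above (26.5% of all probes) and 3 had all thymus arrays above (29.2%). With 5 oligos of 3 genes, these shares are a description of the oligos and are not read against the background.

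The mu receptor Oprm1 had the lower cortex values on both of its oligos. Oprm1 oligo 1 stood at 9.99, 9.50 and 9.58 on the 3 cortex arrays, against 10.70, 10.61 and 11.00 on the thymus arrays (normalized log2 intensity). Every thymus array was above every cortex array. The difference was -1.08 ± 0.35 (SE, n = 3 arrays each, limma adjusted p = 0.0173). Oprm1 oligo 2 stood at 11.40, 10.97 and 10.44 on cortex arrays and at 12.65, 12.58 and 12.15 on thymus arrays. Again no cortex array reached the lowest thymus array, and cortex 3 was the lowest of all 6. Its difference of -1.52 ± 0.37 (SE, n = 3 each, limma adjusted p = 0.00278) corresponded to a 2.88-fold higher normalized signal in thymus. Only 8.17% of the tested probes had a more negative difference than this oligo.

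Before scaling, the same spots gave a different picture, and the direction for Oprm1 is one relative to the other probes of the array. The background-subtracted signal of Oprm1 oligo 2 was 6448, 3143 and 1034 on cortex arrays and 7125, 3221 and 2630 on thymus arrays. For oligo 1 it was 2032, 957 and 486 in cortex and 1397, 632 and 1034 in thymus, so that the tissues overlapped for both oligos in unscaled signal. With no scaling the difference of oligo 2 was -0.53 ± 0.73 (limma adjusted p = 0.675) and with arrays centred on control genes it was -0.91 ± 0.47 (adjusted p = 0.126). Over all alternatives its adjusted p ran between 0.000732 and 0.675. Under the same settings oligo 1 gave -0.06 ± 0.73 (adjusted p = 0.967) and -0.44 ± 0.47 (adjusted p = 0.484). With control genes 1 of the 5 receptor oligos was called higher in cortex and 0 in thymus, where 36.6% of all probes were called, 30.5% higher in cortex and 6.02% higher in thymus. With no scaling the counts were again 1 and 0, beside 25.2% of all probes higher in cortex and 0.00% higher in thymus. These settings also move the median of all tested probes, to 0.86 with no scaling and to 0.48 with control genes. Relative to that median, Oprm1 oligo 2 lay at -1.43 under quantile scaling, -1.40 under control genes and -1.39 with no scaling, and oligo 1 at -0.98, -0.93 and -0.92. Centring moves all values of an array alike, so the near-equal places follow largely from the construction and are no support for a difference.

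The call for Oprm1 oligo 1 rested on a narrower margin than that for oligo 2. Without cortex 2 its difference was -0.98 ± 0.39 with a limma adjusted p of 0.0697, and without the 2 coarse-grid arrays, an alternative chosen after seeing the data, it was -1.10 ± 0.39 with 0.0505. Over all alternatives its adjusted p ran between 0.0101 and 0.967. Oprm1 oligo 2 kept its direction and its call when each array was left out in turn, with differences between -1.75 and -1.28. Within the scan setting shared by cortex 1, cortex 2 and thymus 1, the difference was -0.95 for oligo 1 and -1.47 for oligo 2. Within the coarse-grid setting, 1 array per tissue, it was -1.03 for oligo 1 and -2.14 for oligo 2. Fitted with scan setting as a block, both stayed past the threshold, at -0.98 ± 0.29 (adjusted p = 0.0261) and -1.75 ± 0.31 (adjusted p = 0.00338, limma). Thymus 3 was alone in its setting, so in any fit blocked this way it adds nothing to the tissue difference.

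The 2 printed spots of Oprm1 oligo 2 were not equally bright. The second spot exceeded the first on 6 of 6 arrays, by 1.12- to 2.98-fold. Taken alone, the first spot gave a difference of -1.69 ± 0.42 and the second spot -1.37 ± 0.36 (limma adjusted p = 0.00657 and 0.0161), settings that were chosen after seeing the data. For Oprm1 oligo 1 the second spot was the brighter on 4 of 6 arrays, between 0.945 and 1.70 times the first. Its first spot alone gave -1.14 ± 0.37 and passed (adjusted p = 0.0277), and its second spot alone gave -0.97 ± 0.36 and did not (adjusted p = 0.0557, limma).

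The cannabinoid receptor Cnr1 was read by oligos that differed from each other. Cnr1 oligo 2 stood at 11.08, 11.37 and 10.83 on cortex arrays and at 9.49, 9.09 and 10.26 on thymus arrays (normalized log2 intensity). All 3 cortex arrays were above all 3 thymus arrays, and the oligo was not well above background on any thymus array. It entered the test through its cortex arrays alone, which favours a difference toward cortex, and its p-values are given as a description. The mean normalized value was 11.10 ± 0.27 in cortex and 9.61 ± 0.60 in thymus (SD, n = 3 each). With the thymus level taken as a bound, the mean signal was at least 2.23-fold higher in cortex (limma adjusted p = 0.00427 for the measured values). For this bound, the thymus level of an array was the larger of the oligo's own value there and that of the dimmest probe above background. On 2 of the 3 thymus arrays it was the oligo's own value. The bound compares means and leaves out the spread between arrays. The 95% interval of the measured difference ran from 0.68 to 2.29.

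Cnr1 oligo 1 stood at 12.15, 11.23 and 11.46 on cortex arrays, against 11.62, 10.99 and 11.67 on thymus arrays. The tissues overlapped: cortex 2 and cortex 3 were below thymus 1 and thymus 3. The difference of 0.18 ± 0.38 did not pass (SE, n = 3 each, limma adjusted p = 0.728), with a 95% interval from -0.61 to 0.97 that still allows a difference of either sign. This oligo was above background on all 6 arrays. Leaving out an array in turn gave differences between -0.08 and 0.37. The difference moved with the scaling, to 0.88 ± 0.48 with arrays centred on control genes and 1.26 ± 0.73 with no scaling. Neither passed (limma adjusted p = 0.142 and 0.218). In background-subtracted signal the tissues overlapped, at 10904, 3788 and 1948 in cortex and 2908, 878 and 1646 in thymus.

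The bound for Cnr1 oligo 2 was larger under the other scalings: at least 3.55-fold with arrays centred on control genes and at least 4.64-fold with no scaling. The median difference of all tested probes moved the same way, from -0.10 under quantile scaling to 0.48 and 0.86. The larger bounds are therefore no added support for a difference. The measured difference, which takes the thymus values below background as they stand, was 1.48 under quantile scaling, 1.74 within the first scan setting and 1.75 within the coarse-grid setting, and a fit blocked by scan setting gave 1.74 ± 0.28. Cnr1 oligo 1 lay at 0.28, 0.39 and 0.40 above the median of all tested probes under quantile scaling, control genes and no scaling.

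**Figure D2:**
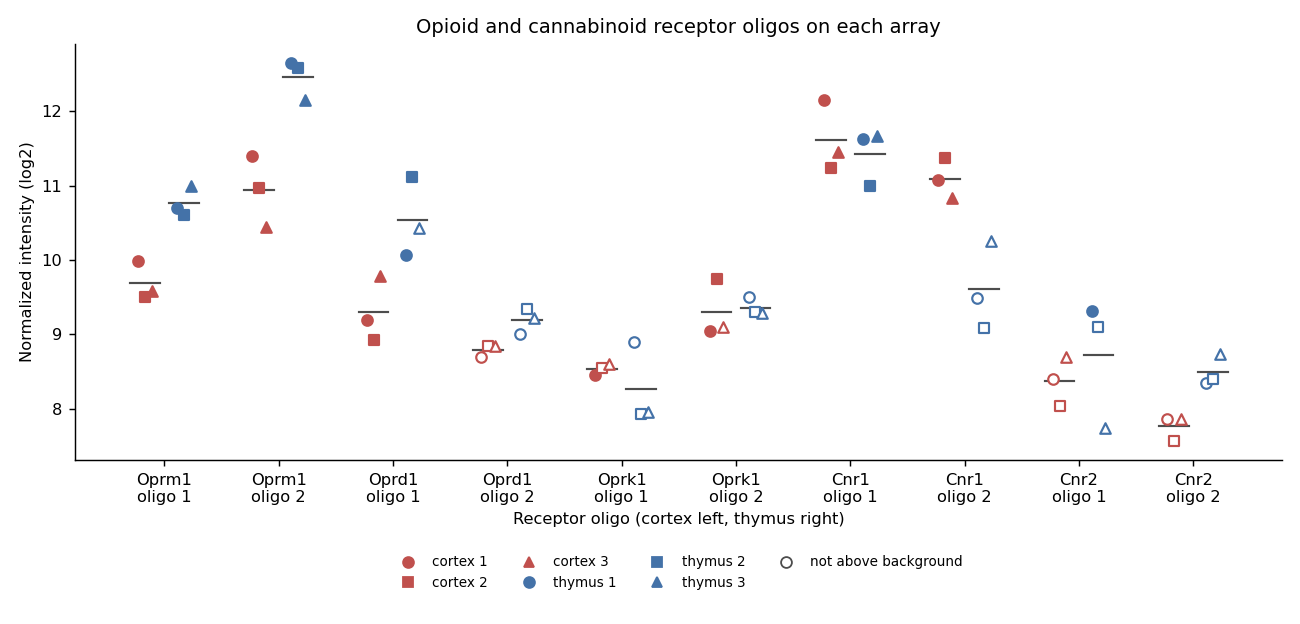
Normalized intensity (y axis, log2) of each of the 10 receptor oligos (x axis) on the 3 cortex arrays (left of each pair) and the 3 thymus arrays (right), with filled symbols where the oligo was above background, open symbols where it was not, and a bar at the mean. Both Oprm1 oligos are higher in thymus without overlap, Cnr1 oligo 2 is filled in cortex and open in thymus, and Cnr1 oligo 1 overlaps; levels of different oligos cannot be compared with each other. Oprd1 oligo 2 and Cnr2 oligo 2 also lie higher in thymus without overlap, though they were above background on no array.

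**Figure D3:**
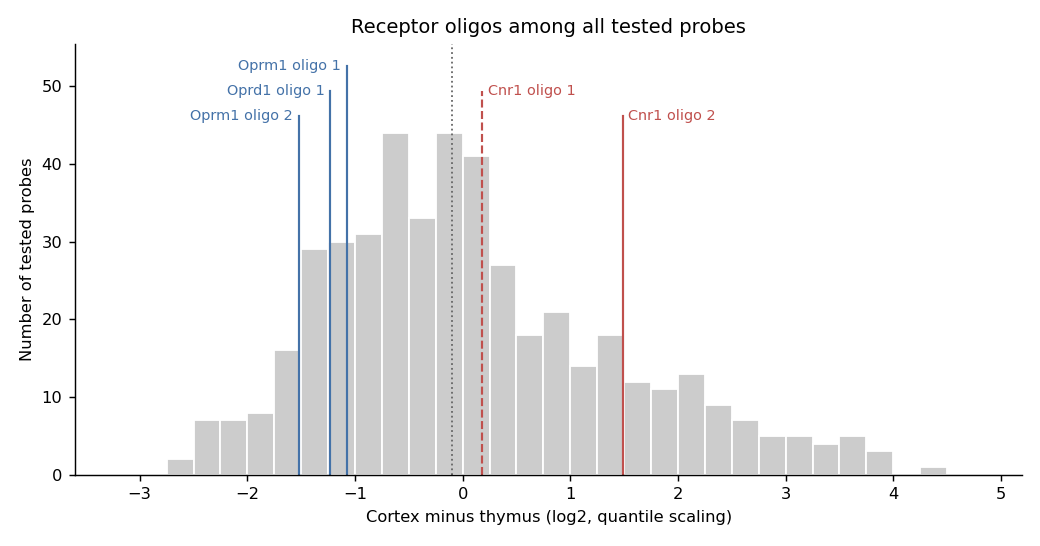
Histogram of the cortex minus thymus difference (x axis, log2, quantile scaling) over 465 tested probes (y axis, number of probes), with lines at the 5 tested receptor oligos, dashed where the test was not passed, and a dotted line at the median of all tested probes. The Oprm1 and Oprd1 lines stand at -1.52, -1.23 and -1.08, left of the median of -0.10, and Cnr1 oligo 2 stands at 1.48, a measured value whose thymus side was not above background.

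**Figure D4:**
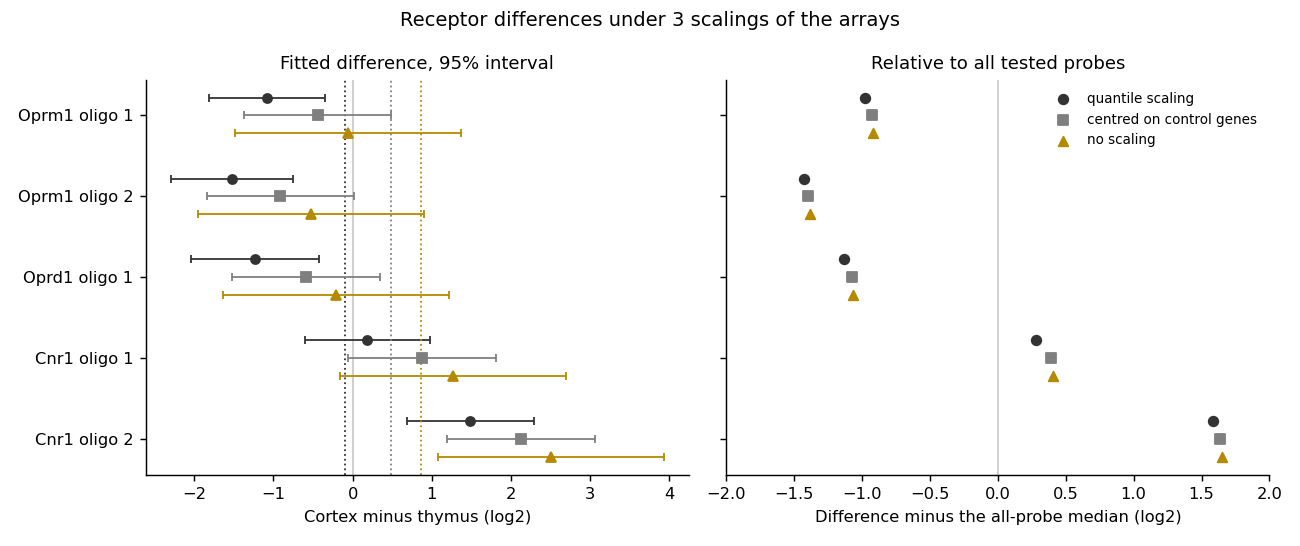
Left, cortex minus thymus difference (x axis, log2) of the 5 tested receptor oligos with its 95% interval under quantile scaling, with arrays centred on control genes and with no scaling, and dotted lines at the median of all tested probes under each; right, the same differences minus that median. Of the intervals, those of Oprm1 and Oprd1 lie below 0 under quantile scaling and include 0 under the other settings. Each oligo's place relative to all tested probes moves by at most 0.12. Centring moves all values of an array alike, so this follows largely from the construction and is no support for a difference. Cnr1 oligo 2 is drawn at its measured thymus values, which were not above background.

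A log2 ratio between unscaled values of the same array is unchanged by any factor that multiplies the whole array, though quantile scaling can alter it. All pairings of a Cnr1 oligo with an Oprm1 oligo were formed from unscaled values, a measure chosen after seeing the data. The log2 ratio of Cnr1 oligo 1 over Oprm1 oligo 1 was 2.28, 1.76 and 1.80 on cortex arrays and 0.94, 0.36 and 0.57 on thymus arrays. Every cortex array was above every thymus array, by 1.32 in the mean. Cnr1 oligo 1 over Oprm1 oligo 2 was 0.79, 0.28 and 1.01 on cortex arrays and -1.17, -1.63 and -0.50 on thymus arrays, a mean difference of 1.79, again without overlap. For Cnr1 oligo 2 the thymus values are bounds, taken as above. Over Oprm1 oligo 2 its ratio was -0.27, 0.45 and 0.43 on cortex arrays and at most -3.29, -2.53 and -1.79 on thymus arrays, a mean difference of at least 2.74. Over Oprm1 oligo 1 the mean difference was at least 2.27, and neither overlapped. The smallest p that 3 arrays against 3 allow is 0.1, and the ratios of Cnr1 oligo 1 over each Oprm1 oligo reached it in a two-sided exact permutation test (0.12 after Benjamini-Hochberg adjustment over 6 ratios). The design cannot pass 0.05 with this test. A ratio of this kind does not show which of the probes changed, and the offset can move it with array brightness.

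Ratios were also formed between the oligos of a gene. Cnr1 oligo 2 over oligo 1 was -1.06, 0.17 and -0.58 on cortex arrays, against at most -2.13, -0.91 and -1.29 on thymus arrays. With these bounds the tissues overlapped, since cortex 1 lay below the bound of thymus 2, so the ratio does not separate them. Oprm1 oligo 2 over oligo 1 was 1.49, 1.48 and 0.79 on cortex arrays, against 2.11, 1.98 and 1.08 on thymus arrays, and the tissues overlapped (mean difference -0.47, exact permutation p = 0.3). The transcript stretches that the oligos cover were not used here.

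**Figure D5:**
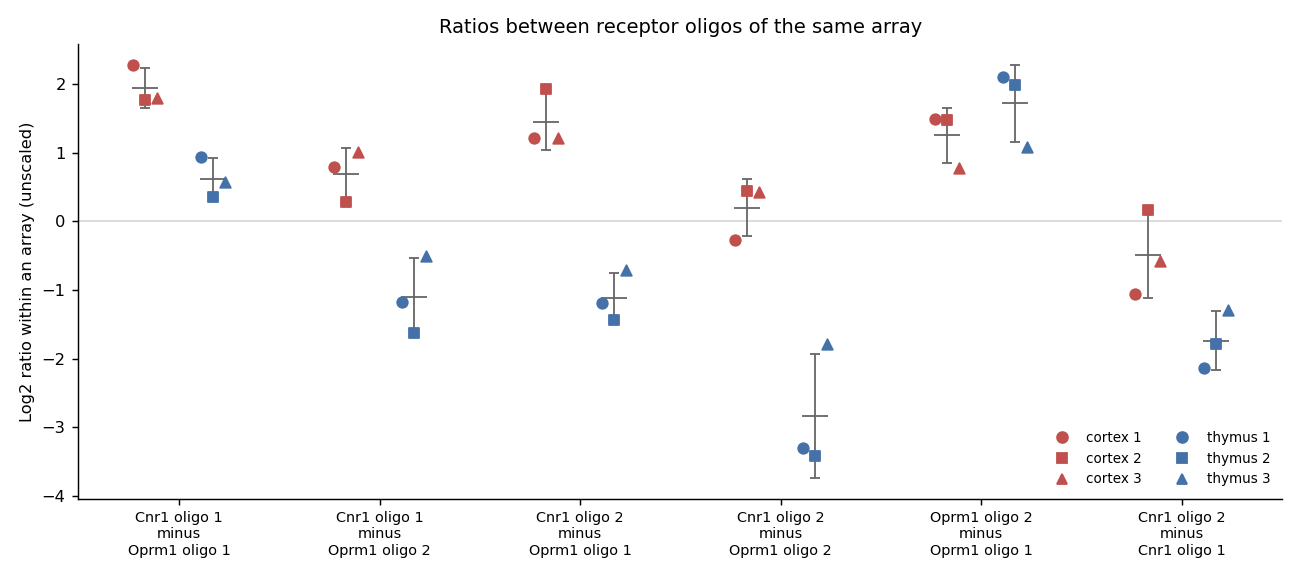
Log2 ratio between receptor oligos of the same array (y axis, unscaled signal) for 6 pairs of oligos (x axis), with 1 symbol per array, cortex left and thymus right, and the mean with its SD. The 2 ratios of Cnr1 oligo 1 over an Oprm1 oligo are higher on every cortex array than on any thymus array. Ratios with Cnr1 oligo 2 are drawn at its measured thymus values, which were not above background.

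The delta receptor Oprd1 was measured by 1 of its oligos. Oprd1 oligo 1 stood at 9.20, 8.92 and 9.78 on cortex arrays and at 10.07, 11.11 and 10.43 on thymus arrays (normalized log2 intensity). The thymus arrays were above the cortex arrays without overlap, with cortex 3 and thymus 1 nearest to each other. The difference was -1.23 ± 0.39 (SE, n = 3 each, limma adjusted p = 0.0139). In background-subtracted signal the tissues overlapped, at 1060, 543 and 582 in cortex and 786, 933 and 662 in thymus. It was -0.21 ± 0.73 with no scaling (adjusted p = 0.885) and -0.59 ± 0.47 with control genes (adjusted p = 0.342), neither past the threshold. Without cortex 2 it was -1.04 ± 0.44 (adjusted p = 0.0853) and without thymus 2 -0.95 ± 0.42 (adjusted p = 0.0502, limma), and over all alternatives its adjusted p ran between 0.0102 and 0.885. Within the first scan setting the difference was -1.01 and within the coarse-grid setting -1.33.

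Many spots of Oprd1 oligo 1 were small. On cortex 3, thymus 1 and thymus 2 they were segmented at 10 to 40 pixels, and on the other arrays at 11 to 315 pixels. The median blank spot covered 14 or 15 pixels on each array, and the median control spot of the housekeeping gene G3PDH between 78 and 369.5 pixels. With spots under 25% of that control area left out, an alternative chosen after seeing the data, Oprd1 oligo 1 could not be tested. The part of spot area in the Oprd1 result was not tested further. The Oprm1 oligos stayed past the threshold there, at -0.93 ± 0.34 (adjusted p = 0.0406) and -1.30 ± 0.37 (adjusted p = 0.0104, limma). Oprd1 oligo 2 was above background on no array of either tissue, with background-subtracted signals of 832, 502 and 153 in cortex and 274, 173 and 197 in thymus. After quantile scaling this oligo too lay higher in thymus without overlap, at a mean of 8.79 in cortex and 9.19 in thymus. It gives no fold.

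The kappa receptor Oprk1 did not enter the test. Oprk1 oligo 2 was above background on cortex 1 and cortex 2 and on no thymus array. Its background-subtracted signal was 916, 1166 and 249 on cortex arrays, against 462, 137 and 203 on thymus arrays. Oprk1 oligo 1 was above background on cortex 1 alone, at 568 there, with 338 and 88 on the other cortex arrays and 234, -55 and -9 on thymus arrays. Cortex 1 and cortex 2 were also brighter over all gene spots than every thymus array, and the part of brightness in these signals was not tested. After quantile scaling Oprk1 oligo 2 stood at 9.04, 9.75 and 9.10 in cortex and at 9.50, 9.30 and 9.28 in thymus, with overlap, and no lower bound above 1-fold could be given for either oligo.

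The cannabinoid receptor Cnr2 was at the edge of detection in both tissues. Cnr2 oligo 1 was above background on thymus 1 alone, with signals of 538, 149 and 110 on cortex arrays and 393, 178 and -30 on thymus arrays. Cnr2 oligo 2 was above background on no array, between -29 and 127 in cortex and between 3.5 and 106 in thymus. After quantile scaling Cnr2 oligo 2 lay higher in thymus without overlap, at a mean of 7.76 in cortex and 8.49 in thymus. These values come from signals that were not above background. A tissue difference of Cnr2 was not detectable on these arrays.

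Among ligands, the array held the opioid peptide precursor Pomc, the source of beta-endorphin, and both of its oligos were higher in thymus. Pomc oligo 2 stood at 9.14, 8.71 and 9.14 on cortex arrays and at 10.38, 11.13 and 10.67 on thymus arrays, without overlap. Its difference was -1.73 ± 0.36 (SE, limma adjusted p = 0.000808) and that of Pomc oligo 1 was -1.36 ± 0.38 (adjusted p = 0.00715). With arrays centred on control genes the differences of oligo 2 and oligo 1 were -1.17 and -0.72, where 1 of the 2 passed, and neither passed with no scaling. No probe of Penk, Pdyn or Pnoc was found by name, nor of the enzymes that make or degrade endocannabinoids.

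Of the signalling partners, the G protein-gated potassium channels Kcnj3, Kcnj5, Kcnj6 and Kcnj9 had 7 tested probes, with 3 calls toward cortex, 1 toward thymus and 3 probes short of the threshold, beside 24.3% of all tested probes higher in cortex and 23.7% higher in thymus. Kcnj3, the subunit shared by most neuronal channels of this kind, was higher in cortex by both oligos. Kcnj3 oligo 2 stood at 11.69, 11.09 and 10.87 on cortex arrays and at 9.75, 8.97 and 8.19 on thymus arrays (difference 2.24 ± 0.41, adjusted p = 0.000323). For oligo 1 cortex exceeded thymus at least 2.30-fold (adjusted p = 0.00212, limma). Kcnj3 oligo 1 entered the test through its cortex arrays alone, so its p-value and its place in the cortex count are a description. The oligos of Kcnj6 opposed each other, at -1.06 ± 0.34 for oligo 1 (adjusted p = 0.0163) and 0.90 ± 0.36 for oligo 2 (adjusted p = 0.0461). The 3 cortex calls of the channel list held with control genes and with no scaling, and the thymus call did not. Arrestin beta 2 (Arrb2), which uncouples activated receptors from their G protein, was higher in thymus by both oligos (-1.01 ± 0.35 and -0.94 ± 0.38, adjusted p = 0.0265 and 0.0470), and by neither with control genes or with no scaling. The G protein subunit Gnb4 did not pass with either oligo (-0.82 ± 0.38 and -0.04 ± 0.37, adjusted p = 0.0841 and 0.953, limma).

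Other neuropeptide receptors that couple to the same inhibitory G proteins had 7 tested probes, of which 2 were higher in cortex, 2 were higher in thymus and 3 did not pass, close to the 24.3% and 23.7% of all tested probes. Both oligos of the somatostatin receptor Sstr3 were higher in thymus, at -1.54 ± 0.41 (adjusted p = 0.00539) and -1.57 ± 0.34 (adjusted p = 0.00115). For Sstr4 oligo 2 cortex exceeded thymus at least 1.09-fold (limma adjusted p = 0.0226). This oligo entered the test through its cortex arrays alone, so its p-value and its call are a description. Sstr1 oligo 1 was higher in cortex by 1.10 ± 0.39 with overlap between the tissues (adjusted p = 0.0270, limma). With control genes the list had 3 probes higher in cortex and 0 higher in thymus, beside 30.5% and 6.02% of all tested probes.

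Genes listed for the cholecystokinin interneurons in which Cnr1 is known to be high (Cck, Cckbr and Gad2) had 8 tested probes. Of these, 5 were higher in cortex (24.3% of all tested probes), 0 were higher in thymus (23.7%) and 3 did not pass. The list does not single out that cell type, and its Gad2 probes are those already counted among the neuron markers. Cck, the cholecystokinin precursor, stood at 13.16, 13.27 and 12.52 on cortex arrays and at 9.47, 8.64 and 8.99 on thymus arrays by oligo 2, a ratio of cortex over thymus of at least 9.09-fold (adjusted p = 1.67e-06), and oligo 1 was higher by 3.06 ± 0.38 (adjusted p = 8.96e-06). Gad2 makes the transmitter GABA. Oligo 2 of its entry printed as gad65 gave a signal at least 5.55-fold higher in cortex (limma adjusted p = 1.96e-06), as against at least 1.62-fold for oligo 2 of the entry printed as GAD67, which its accession assigns to Gad2 (adjusted p = 0.00433, limma). The count of 5 was the same with control genes and with no scaling. Of its probes, Cck oligo 2 and oligo 2 of both Gad2 entries entered the test through their cortex arrays alone. Their p-values and their part in the count are a description.

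Over the 6 arrays, the probes of other genes whose values followed Oprm1 oligo 2 most closely, among 438 compared, were Adrb3 oligo 2 (Pearson r = 0.986), a probe printed as rage (0.981) and Htr6 oligo 2 (0.978). For Cnr1 oligo 2 they were a potassium channel probe printed as kv3,2a (0.978), Grin2a (0.969) and Srcin1 oligo 2 (0.968). Such values describe 6 arrays that share 2 RNA pools and 1 scaling: 35 probes exceeded 0.9 for Oprm1 oligo 2 and 28 for Cnr1 oligo 2. The other oligo of the same gene reached 0.898 for Oprm1 and 0.386 for Cnr1.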

How the data were processed

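Spot intensities were used as deposited by the authors. Per the file headers they are scanner readings of automatically segmented spots, each with a median signal and the median and SD of its local background. They run to the scanner's 16-bit ceiling and were not normalized. Other deposited columns hold a flag for bad spots and the pixels per spot. No source used here names the quantification software. The deposited value table held 20 probes and 0 of the receptor oligos, and was not used.

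limma 3.58.1 in R 4.3.3 corrected backgrounds (normexp, offset 50, all spots). After removal of flagged and control spots, log2 values of an oligo's spots were averaged and arrays were quantile-normalized. The two-sided limma fit (lmFit, eBayes) compared cortex with thymus over 465 probes, namely those above background on 3 or more of the 6 arrays and with 2 or more values in each tissue. P-values were adjusted by Benjamini-Hochberg over these probes, with a threshold of 0.05. Fits without an array kept this set of probes. Where an oligo was above background on no array of a tissue, a bound replaced the fold. Such a bound compares means and leaves out the spread between arrays. The number of arrays limits the precision, and the fit was tested on simulated data.

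The sample titles gave tissue and replicate number. Entries of 2 receptor genes were named by accession through the RefSeq gene table of GRCm38.p6 and entries of 3 by printed name. No build is named with the files and no oligo sequence was used here, so positions and sequences are not given. All receptor oligos are named. Of each list of pathway genes, up to 4 probes with the smallest p were named, and, as most alike, the 3 probes of other genes with the highest Pearson r. Marker probes are named besides. The receptors and all lists were chosen with earlier results of these data known. Alternatives covered background correction, scaling, the filter on dim probes, spot summary, flagged spots, replicate number or scan setting as a block, eBayes settings and each array left out in turn. Python 3.11.15 with pandas 2.3.3, numpy 2.4.6 and scipy 1.17.1 made the summaries, and matplotlib 3.10.9 drew the figures.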

Additional observations from a re-analysis of the deposited data

How the results depend on the processing

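Scaling moved the receptor calls most. With no scaling the oligos higher in thymus fell to 0 of 5 (all probes 0) and with arrays centred on control genes to 0 (all probes 28), as Oprm1 oligo 1 gave -0.058 and -0.44, Oprm1 oligo 2 -0.53 and -0.91, and Oprd1 oligo 1 -0.21 and -0.59, with medians of -0.058 and -0.44. The splits of all probes were then 117 higher in cortex against 0 in thymus and 142 against 28. Plain background subtraction gave a median of -1.49. Requiring signal on all 6 arrays left 186 probes, with a median difference of -0.52 beside -0.10 in the main fit. Of these 186, 18 were called toward cortex and 63 toward thymus. The 3 receptor oligos left had 0 calls toward cortex and 2 toward thymus, because Cnr1 oligo 2 and Oprd1 oligo 1 left the test. Without cortex replicate 2, 1 receptor oligo was higher in thymus (all probes 67). Leaving out each array in turn gave -1.23 to -0.96 for Oprm1 oligo 1, -1.48 to -0.95 for Oprd1 oligo 1, a median of -1.18 to -0.95, 1 to 3 receptor oligos higher in thymus, and 91 to 120 probes higher in cortex and 67 to 113 in thymus over the array. Settings chosen after seeing the data gave, for Oprm1 oligo 1, -1.10 without the coarse-grid arrays, -0.97 by the second spot (the call was lost in both) and -0.71 between the arrays of 1 scan day (median -0.71). The second spot gave -1.14 for Oprd1 oligo 1 and 1 oligo higher in thymus. Leaving out small spots left 368 probes and 4 receptor oligos, without Oprd1 oligo 1. The median of these oligos was -0.25, beside 0.10 over the 368 probes, of which 64 were higher in thymus. This median is over other oligos than that of the main fit. Within the coarse-grid setting Oprm1 oligo 2 gave -2.14. Apart from the scaling and filter effects that follow from their construction, the cause was not tested. Cnr1 oligo 1 passed in no fit, and Cnr1 oligo 2, tested through its cortex arrays alone, says nothing of stability.

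Arrays of the same number did not deviate together (correlations of 0.17, -0.09 and 0.01). With the replicate block, 1 receptor oligo was higher in cortex and 3 in thymus, with a median of -1.08, and 109 and 101 of all probes. The value table held no receptor oligo and gave no value. The arrays share 1 RNA pool per tissue, so differences between animals cannot be seen, and signals near background set no order.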
